A study of Mus musculus with 8 samples.

Results

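Medullary thymic epithelial cells hold developing thymocytes on their surface while they display self antigens to them, and the receptors that make this contact were followed here at the mRNA level. The 10 genes were *Cd44*, *Cd24a*, *Icam1*, *Vcam1*, *Epcam*, *Alcam*, *Bcam*, *Mcam*, *L1cam* and *Cd47*. They were chosen by symbol as surface adhesion molecules, with earlier results of these data known. The rule names no measured value, and the genes make up 10 of the 24052 gene symbols counted. All 10 had enough counts for testing, as did 11672 symbols in all.

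The counts came from RNA-Seq of the mouse line mTEC 3.10 (strain C57BL/6, called WT here) and of clone E6, a single Crispr-Cas9 clone derived from it, both without (before) and with (after) adhesion of thymocytes. There were 8 libraries, 2 for each of the 4 conditions. The labels give the genotype of E6 as Aire +/-, whereas the study describes indels in both *Aire* alleles. Cells were at passage 2, and the libraries after adhesion came from 12 h of co-culture with C57BL/6 thymocytes at 50 per mTEC, with loose thymocytes washed off. The labels list a culture of 24 h for 3 libraries (E6 before adhesion replicate 1, E6 after adhesion replicate 1 and WT after adhesion replicate 2), and of 12 h for the remaining 5. The titles and sources of the E6 samples before adhesion give no co-culture, but their protocol text mentions it, and the titles were followed. The labels do not state that the 2 libraries of a condition came from separate cultures, so p-values measure the spread between these libraries, which may be technical. With 1 clone, the effect of the *Aire* mutations and of the choice of clone cannot be told apart.

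*Aire*, the targeted gene, had 0 counts in all 4 libraries before adhesion, and 0 and 3 counts in both WT and E6 after adhesion, so no difference was detectable at this depth. A level of 3 counts was 0.145 to 0.221 CPM (the count scaled by the TMM-adjusted total of its library), a floor that covers counting error only. Between 13506610 and 20145154 reads per library fell on genes. Replicate 1 of WT after adhesion stood apart, with 66.7% of its alignments on genes against 75.7% to 78.8% elsewhere, and with counts that fell by 0.46 on the log2 scale for each 10% of gene GC content. The slopes of the other 7 libraries lay between -0.02 and 0.13. Of the epithelial markers, *Krt8* and *Krt18* were abundant in all libraries, at 1378 to 2041 and 664 to 1311 CPM. The medullary genes *Fezf2* and *Cd80* had at most 2 and 4 counts and the cortical gene *Psmb11* had 0. Other genes of the same list were present in all libraries, *Cldn4* at 341 to 940 CPM, *Krt14* at 267 to 592 and *Pax1* at 132 to 209. *Ly75* had 17.7 to 31.7 CPM and *Foxn1* 11.1 to 14.8 CPM, whereas *Krt5* reached at most 1.02 CPM.

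ICAM1 and VCAM1 are immunoglobulin-type ligands that integrins on lymphocytes grip, LFA-1 in the first case and VLA-4 in the second, and both are classical targets of NF-kB signalling. CD44 binds hyaluronan, CD24 is a small glycosylated protein anchored by lipid that binds Siglec receptors, and CD47 signals to SIRP-alpha as a check on phagocytosis. EPCAM joins epithelial cells to each other, ALCAM binds CD6 on T cells, BCAM and MCAM bind laminin chains, and L1CAM binds itself and integrins.

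Promoter sequences are shown for *Icam1*, *Cd44*, *Mcam* and *Epcam*, because the first 3 were higher in E6 and *Epcam* had nearly the same level in both lines. They were taken from RefSeq on GRCm38.p6 and span 300 bases, 250 before the RefSeq gene start and 50 from it on, printed 5′ to 3′ on the strand of the gene. Capitals mark matches, on either strand, to the NF-kB motif GGNNNTTCC or the Sp1 motif GGGCGG, which did not overlap each other. *Icam1* lies on the plus strand at chr9:21015690-21015989, *Cd44* on the minus strand at chr2:102901616-102901915, *Mcam* on the plus strand at chr9:44134408-44134707 and *Epcam* on the plus strand at chr17:87635729-87636028.
Icam1: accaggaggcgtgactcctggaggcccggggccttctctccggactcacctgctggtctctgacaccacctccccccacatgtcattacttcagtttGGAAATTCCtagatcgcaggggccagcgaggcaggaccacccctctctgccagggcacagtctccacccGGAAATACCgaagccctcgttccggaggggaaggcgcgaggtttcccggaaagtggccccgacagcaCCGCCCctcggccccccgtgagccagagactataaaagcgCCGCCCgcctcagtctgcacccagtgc
Cd44: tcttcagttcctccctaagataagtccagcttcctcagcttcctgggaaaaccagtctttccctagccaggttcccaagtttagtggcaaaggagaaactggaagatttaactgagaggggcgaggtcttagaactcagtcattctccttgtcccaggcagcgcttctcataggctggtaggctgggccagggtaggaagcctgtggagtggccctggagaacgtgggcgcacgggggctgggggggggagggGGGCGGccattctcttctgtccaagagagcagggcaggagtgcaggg
Mcam: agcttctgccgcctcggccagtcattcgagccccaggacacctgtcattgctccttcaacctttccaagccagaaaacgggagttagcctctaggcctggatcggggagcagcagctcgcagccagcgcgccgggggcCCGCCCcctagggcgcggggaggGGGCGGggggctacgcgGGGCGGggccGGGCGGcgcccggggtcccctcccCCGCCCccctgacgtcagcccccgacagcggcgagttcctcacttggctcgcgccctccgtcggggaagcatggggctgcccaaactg
Epcam: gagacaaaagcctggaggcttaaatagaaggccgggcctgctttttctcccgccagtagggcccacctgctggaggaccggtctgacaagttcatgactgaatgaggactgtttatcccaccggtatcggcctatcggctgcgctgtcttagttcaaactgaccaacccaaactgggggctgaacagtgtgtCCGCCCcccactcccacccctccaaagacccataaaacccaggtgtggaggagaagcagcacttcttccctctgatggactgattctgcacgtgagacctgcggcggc

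A window was held for 8 of the 10 genes, and none for *Vcam1* and *Cd24a*. Of those 8 genes, *Icam1* alone held the NF-kB motif, with 2 matches that began at positions -153 (GGAAATTCC) and -84 (GGAAATACC, which reads as the motif on the opposite strand) from the gene start. This motif was present in 18.5% of the 32851 mouse promoter windows of the same length. The Sp1 motif was present in all 8 genes and in 35.7% of all windows, with 5 matches in *Mcam*, 2 in *Icam1* and 1 each in *Cd44* and *Epcam*. None of the 8 held the AP-1 motif TGANTCA, which was present in 7.81% of all windows. A match describes these letters and is not a measured binding site.

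Per length of exon, *Epcam* was the most abundant of the 10 genes in every condition and *Icam1* and *Vcam1* were the least abundant. In WT before adhesion, mean levels in CPM per kb were 248 for *Epcam*, 157 for *Cd24a*, 64.2 for *Cd44* and 49.6 for *Mcam*. *L1cam* followed at 16.3 CPM per kb, then *Alcam* at 7.76, *Cd47* at 5.80 and *Bcam* at 5.03. *Icam1* at 0.161 and *Vcam1* at 0.0489 CPM per kb closed this order, in which no neighbours overlapped between their 2 libraries.

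In E6 the order changed at the top. *Cd44* and *Cd24a* stood at 114 and 107 CPM per kb before adhesion with overlapping libraries, and after adhesion *Cd44* was above *Cd24a*, at 123 against 98.1 CPM per kb, with the libraries apart. *Cd44* made up 11.1% to 14.9% of the summed level per length of the 10 genes in the WT libraries and 18.8% to 22.1% in the E6 libraries, and *Cd24a* 27.5% to 28.6% and 16.5% to 18.5%. *Icam1* and *Vcam1* overlapped each other after adhesion in both lines.

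**Figure D1:**
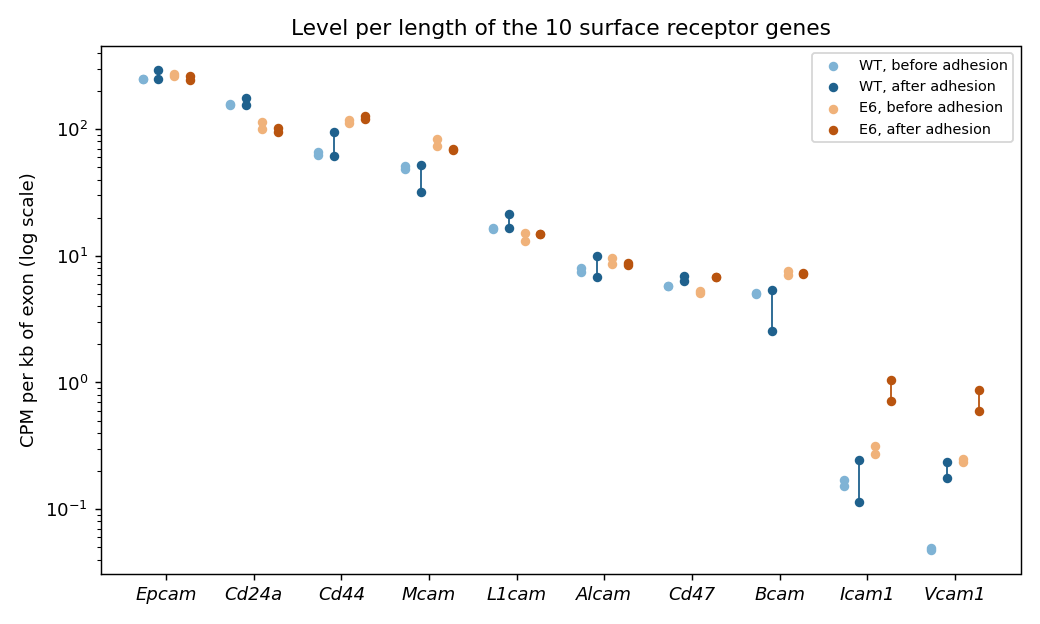
Level per length of the 10 genes in each of the 8 libraries, as CPM per kb of exon on a log axis. Points are libraries, lines join the 2 libraries of a condition and colours give the condition, and *Cd24a* lies above *Cd44* in WT but not in E6 after adhesion.

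The comparison of E6 with WT asks which receptor mRNAs differ between the mutant clone and its parent line. Averaged over both adhesion states, 5 of the 10 genes were DE mRNAs (FDR under 0.05 and FC of at least 1.5), against 11.3% of all tested genes. *Vcam1*, *Icam1*, *Cd44* and *Mcam* were higher in E6 (higher calls made up 5.22% of all genes), and *Cd24a* was lower (6.13%). For 7 of the 10, the 4 E6 and the 4 WT libraries did not overlap, as for 31.2% of all genes. The median log2 FC was 0.41 over the 10 genes and -0.01 over all tested genes.

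*Vcam1* (chromosome 3, 116109949 to 116129688, minus strand, GENCODE vM21 on GRCm38) had 0.425 and 0.442 CPM in the WT libraries before adhesion and 1.56 and 2.08 CPM after it. In E6 it had 2.22 and 2.09 CPM before and 5.27 and 7.77 CPM after adhesion. Every E6 library was above every WT library, and E6 before adhesion was just above WT after adhesion. The averaged log2 FC was 2.06 ± 0.24 (SE, 95% confidence interval 1.5 to 2.61, FDR = 0.00196 by edgeR's quasi-likelihood test), a 4.16-fold higher level. It remained DE in each of the 8 fits that left out 1 library. These levels rest on few reads, 6 and 7 counts in WT before adhesion and 88 and 130 counts in E6 after it, and reads of the antisense gene *Gm43109* cannot be told apart from its own where strand was not used in counting.

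The difference in *Vcam1* was present in each adhesion state. Before adhesion the log2 FC was 2.29 ± 0.38 (FDR = 0.0196) and *Vcam1* was the 1 DE mRNA of the 10 genes, against 5.01% of all genes, although the libraries did not overlap for any of the 10 (70.9% of all genes). After adhesion it was 1.82 ± 0.28 (FDR = 0.0129). Between libraries of 12 h culture the difference in log2 CPM was 1.99 before and 2.23 after adhesion, and between those of 24 h it was 1.29 after adhesion. The FDR rose to between 0.119 and 0.190 before adhesion without either library of E6 or of WT before adhesion, and to 0.0745 and 0.137 after adhesion without replicate 1 or 2 of E6 after adhesion. With only the 4 libraries after adhesion in the fit, 0 of all genes were called by edgeR, and the FDR was 0.114 for *Vcam1*, 0.138 for *Icam1* and 0.175 for *Cd24a*.

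*Icam1* (chromosome 9, 21015985 to 21028817, plus strand) had 0.668 and 0.737 CPM in WT before and 0.497 and 1.06 CPM in WT after adhesion. In E6 it had 1.39 and 1.18 CPM before and 3.11 and 4.54 CPM after adhesion. All E6 libraries were above all WT libraries, by a small margin before adhesion and by a wide one after it. The averaged log2 FC was 1.54 ± 0.30 (95% confidence interval 0.85 to 2.24, FDR = 0.0125). After adhesion *Icam1* was 4.68-fold higher in E6 (log2 FC 2.23 ± 0.39, FDR = 0.0185), and before adhesion the log2 FC was 0.86 ± 0.45 and did not pass (FDR = 0.335).

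The averaged call for *Icam1* was lost, with an FDR of 0.0516 to 0.0693, without replicate 2 of E6 after adhesion or any 1 library of either line before adhesion. After adhesion its FDR was 0.0557 without either WT library before adhesion, and 0.108 and 0.174 without replicate 1 or 2 of E6 after adhesion. Counts ranged from 7 to 76, and the antisense gene *Gm47079* overlaps *Icam1*. Between libraries of 12 h culture the difference in log2 CPM after adhesion was 2.91, between those of 24 h it was 1.45, and before adhesion it was 0.66 at 12 h.

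**Figure D2:**
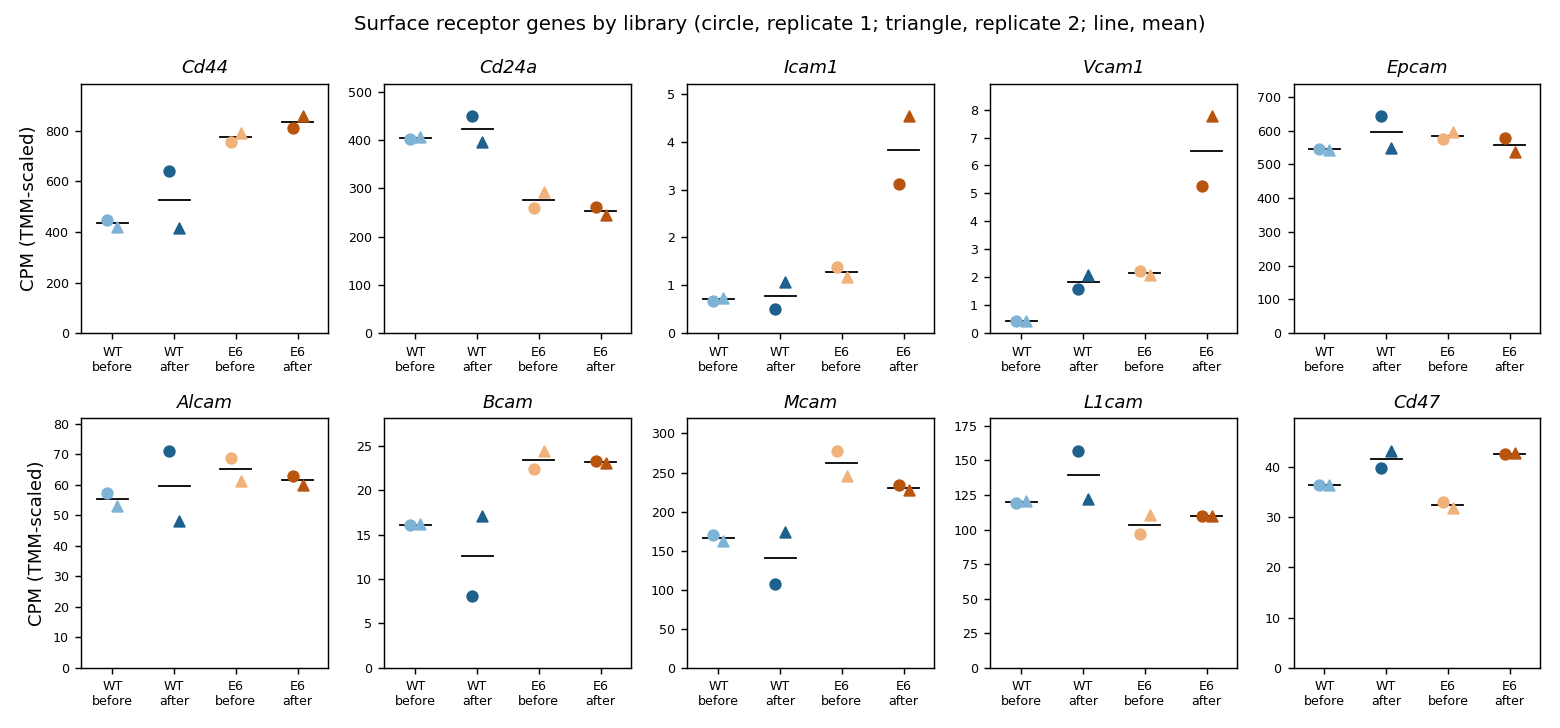
CPM of the 10 genes in each library, 1 panel per gene on a linear axis from 0. Circles are replicate 1, triangles replicate 2 and lines the mean of 2 libraries, and *Vcam1*, *Icam1*, *Cd44*, *Mcam* and *Bcam* lie higher in all E6 than in all WT libraries, *Cd24a* and *L1cam* lower.

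Thymocyte marker reads were present after adhesion, at a higher level in E6 than in WT. The 16 thymocyte marker genes counted summed to 0.911 to 1.40 CPM in WT and 0.536 to 1.18 CPM in E6 before adhesion, and to 19.5 to 31.6 CPM in WT and 134 to 168 CPM in E6 after it. Single genes of other lists were counted in the same libraries. The myeloid gene *Lyz2*, named after its values were seen, had 0 counts in all libraries before adhesion, 12 and 24 counts in WT after it and 109 and 88 counts in E6 after it, and the endothelial and leukocyte gene *Pecam1* had 0, then 2 and 4, then 31 and 22 counts. The 7 myeloid markers counted summed to 72.4 to 80.0 CPM in WT and 58.9 to 68.3 CPM in E6 before adhesion. After it they summed to 50.5 to 75.6 CPM in WT and 65.9 to 68.2 CPM in E6. Most of each sum came from *Csf1r* (39.2 to 65.9 CPM) and *Cd14* (4.68 to 14.8 CPM), which were present before adhesion. Averaged over the lines, 2 of 5 tested myeloid markers rose after adhesion, against 1.89% of all genes, with a median log2 FC of 1.27. Of these, *Lyz2* passed the filter on low counts only through libraries after adhesion, so that share was partly fixed by the filter. After adhesion 1 of 5 was higher in E6 than in WT, against 8.91%. The part of these cells in the values of *Icam1* and *Vcam1* after adhesion was not tested. Before adhesion the thymocyte markers summed to at most 1.40 CPM, and *Vcam1* was 4.90-fold higher in E6. In such bulk RNA, fewer cells of a type and less RNA per cell cannot be told apart.

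**Figure D3:**
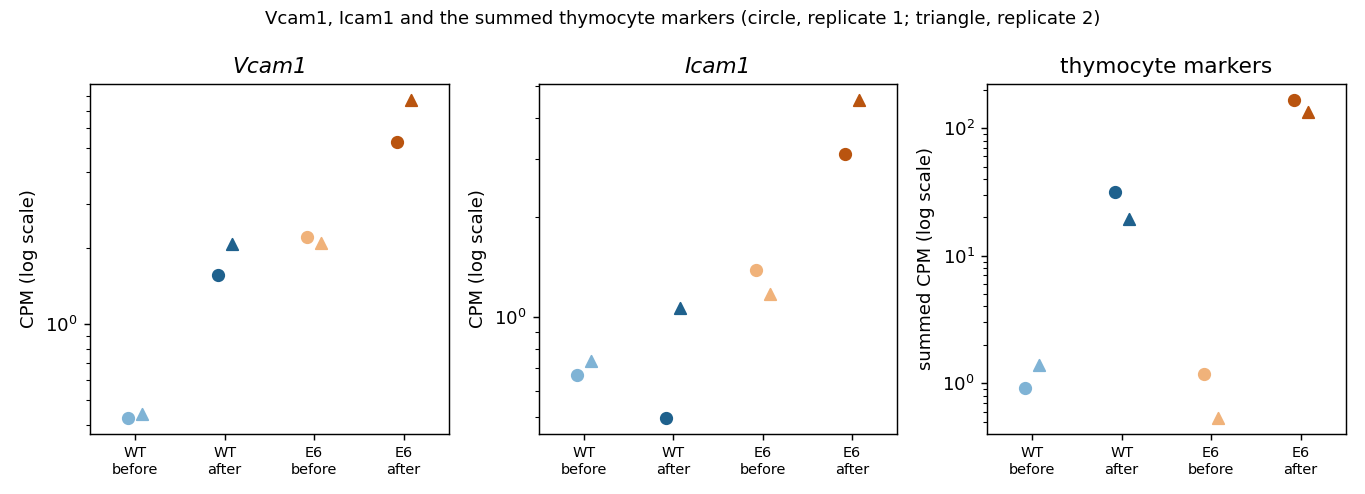
CPM of *Vcam1* and *Icam1* and summed CPM of 16 thymocyte markers in each library, on log axes. Circles are replicate 1 and triangles replicate 2, and the marker sum is 134 to 168 CPM in E6 after adhesion against 19.5 to 31.6 CPM in WT after adhesion.

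*Cd44* (chromosome 2, 102811141 to 102901665, minus strand), the hyaluronan receptor, had 449 and 421 CPM in WT before and 642 and 415 CPM in WT after adhesion. In E6 it had 756 and 794 CPM before and 812 and 859 CPM after adhesion. Replicate 1 of WT after adhesion, the library with the GC slope, was the highest of the WT libraries and still below all of E6. *Cd44* was 1.68-fold higher in E6 (log2 FC 0.75 ± 0.14, 95% confidence interval 0.42 to 1.07, FDR = 0.0111). Within the adhesion states the log2 FC was 0.83 ± 0.20 before (FDR = 0.0562) and 0.66 ± 0.20 after adhesion (FDR = 0.0753), and neither passed in the main fit. Of 8 alternative fits that left out no library of the comparison, *Cd44* passed in 5 before adhesion and in 3 after it. The highest FDR over these fits was 0.0786 before and 0.327 after adhesion. The averaged FDR rose to between 0.0519 and 0.0652 without either E6 library after adhesion, replicate 2 of E6 before adhesion or either WT library before adhesion.

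*Cd24a* (chromosome 10, 43578284 to 43584265, plus strand), whose protein is also abundant on immature thymocytes, had 403 and 406 CPM in WT before and 450 and 397 CPM in WT after adhesion. In E6 it had 260 and 292 CPM before and 262 and 245 CPM after adhesion. It was the 1 DE mRNA of the 10 that was lower in E6, and no E6 library reached a WT library. The averaged log2 FC was -0.65 ± 0.09 (95% confidence interval -0.85 to -0.44, FDR = 0.00346). After adhesion it was -0.74 ± 0.12 (FDR = 0.0155), and before adhesion -0.55 ± 0.12, with an FDR of 0.0463 but under the FC limit.

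The call for *Cd24a* lay close to the FC limit. The averaged log2 FC was -0.58 without replicate 1 of WT after adhesion and -0.53 with counts corrected for GC content, both under that limit. After adhesion the FDR was 0.142 and 0.179 without replicate 1 or 2 of E6 after adhesion, and 0.0563 and 0.0564 without replicate 1 or 2 of WT before adhesion. Well-counted genes on chromosome 10, 459 in number, were lower in E6 as a whole, with a median log2 FC of -0.37, and the 28 genes within the 10 Mb window around *Cd24a* had a median of -0.42. The other 9 genes lay on chromosomes with medians from -0.15 to 0.10. *Aire*, the targeted gene, also lies on chromosome 10 (78030022 to 78043610, minus strand). The part of the whole chromosome in the value of *Cd24a* was not tested.

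*Mcam* (chromosome 9, 44134469 to 44142727, plus strand) and *Bcam* (chromosome 7, 19756131 to 19771016, minus strand), both laminin-binding members of the immunoglobulin superfamily, were higher in all E6 than in all WT libraries. *Mcam* had 170 and 163 CPM in WT before, 107 and 173 CPM in WT after, 278 and 246 CPM in E6 before and 234 and 227 CPM in E6 after adhesion. *Bcam* had 16.0 and 16.1 CPM, 8.09 and 17.1 CPM, 22.4 and 24.4 CPM, and 23.3 and 23.1 CPM in the same order. In both genes replicate 1 of WT after adhesion was the lowest library by far, whereas it was the highest in *L1cam* and *Epcam*.

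*Mcam* passed the averaged test at a log2 FC of 0.69 ± 0.15 (95% confidence interval 0.33 to 1.04, FDR = 0.0194), whereas *Bcam* at 0.70 ± 0.21 did not (FDR = 0.0541). Without replicate 1 of WT after adhesion *Mcam* fell under the FC limit, at a log2 FC of 0.55, and without any 1 of the 6 libraries other than those of WT after adhesion its FDR was 0.0664 to 0.0917. *Bcam* passed with the GC correction (log2 FC 0.63, FDR = 0.00600), with DESeq2 (0.71, adjusted p = 0.0110) and without replicate 2 of WT after adhesion (1.05, in a fit that called 2557 of all genes against 1324). Within culture times the difference in log2 CPM of *Bcam* after adhesion was 1.5 at 12 h and 0.44 at 24 h, and that of *Mcam* 1.09 and 0.43. The antisense genes *Gm10687* and *Gm26600* overlap *Mcam* and *Bcam*.

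The remaining 4 genes did not pass in any contrast of the lines. *L1cam* (chromosome X, 73853778 to 73896105, minus strand) had 119 to 157 CPM in WT and 96.4 to 110 CPM in E6, and its libraries did not overlap between the lines (log2 FC -0.28 ± 0.10, FDR = 0.0955). *Alcam* (chromosome 16, 52248996 to 52454074, minus strand), the CD6 ligand, had 48.0 to 71.1 CPM in WT and 60.0 to 68.9 CPM in E6, and the 95% confidence interval of its log2 FC ran from -0.17 to 0.45. *Cd47* (chromosome 16, 49800533 to 49915010, plus strand) had an interval from -0.25 to 0.12. *Epcam* (chromosome 17, 87635979 to 87651129, plus strand) had 543 to 643 CPM in WT and 537 to 596 CPM in E6, with an interval from -0.20 to 0.21.

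**Figure D4:**
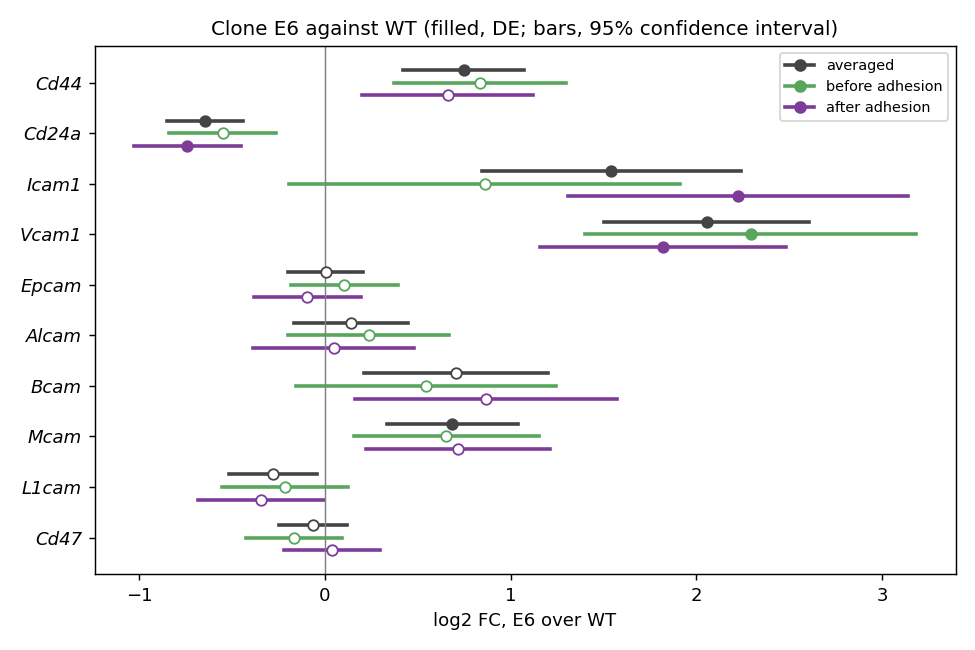
Log2 FC of E6 over WT for the 10 genes, averaged and before and after adhesion. Bars are 95% confidence intervals and filled points are DE mRNAs, with 5 of 10 filled in the averaged contrast, 1 before and 3 after adhesion.

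Of the 3 DE mRNAs among the 10 after adhesion, *Vcam1* and *Icam1* were higher and *Cd24a* lower in E6, against 8.91% of all genes called, and the libraries did not overlap for 7 of the 10, as for 52.1% of all genes.

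Adhesion was compared within each line to ask which receptor mRNAs change when thymocytes bind. *Vcam1* rose in E6, from 2.22 and 2.09 CPM to 5.27 and 7.77 CPM, and was the 1 DE mRNA of the 10 there (log2 FC 1.60 ± 0.28, 95% confidence interval 0.94 to 2.25, FDR = 0.0375), against 2% of all genes. In WT it went from 0.425 and 0.442 CPM to 1.56 and 2.08 CPM, with the libraries apart, but the log2 FC of 2.07 ± 0.39 did not pass after adjustment (FDR = 0.244 by edgeR). Averaged over the lines its log2 FC was 1.83 ± 0.24 (FDR = 0.0124), and it was again the 1 DE mRNA of the 10, against 1.89% of all genes. The thymocyte markers given above rose in the same libraries, and their part was not tested.

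The rise of *Vcam1* in E6 lost its call without any 1 library of E6 (FDR 0.131 to 0.366) or of WT before adhesion (0.0975 and 0.0986), with the replicate number as a block (FDR = 0.0562), with the GC correction (0.0614), with both (0.0642) and with culture time in the model (0.0742). The averaged call was lost, at an FDR of 0.0619 to 0.0968, without replicate 2 of E6 after adhesion or any 1 library before adhesion. In WT the rise passed without replicate 1 of WT after adhesion (log2 FC 2.24, FDR = 0.00596) or without replicate 2 (1.82, FDR = 0.00613). Such fits left that condition with 1 library, assumed to vary like the other conditions, and they called 207 and 3550 of all genes where the fit of 8 libraries called 0. Within culture times the log2 CPM of *Vcam1* was higher after adhesion by 1.60 in WT at 12 h, and by 1.84 at 12 h and 1.20 at 24 h in E6.

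In WT none of the 10 genes was DE after adhesion by edgeR or by DESeq2, and 0% of all genes were called by edgeR. At an unadjusted p under 0.05 edgeR gave 1 of the 10 and 873 of all genes. The libraries before and after adhesion did not overlap for 4 of the 10 genes in WT (31.1% of all genes), 5 in E6 (55.1%) and 1 over both lines (5.52%), which was *Cd47*.

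*Icam1* had 1.39 and 1.18 CPM before and 3.11 and 4.54 CPM after adhesion in E6 (log2 FC 1.58 ± 0.37, FDR = 0.119), and its WT libraries overlapped (log2 FC 0.21 ± 0.47). In E6 it passed when the 4 E6 libraries were fitted alone (log2 FC 1.61, FDR = 0.00289), and without replicate 1 or 2 of WT after adhesion (1.61 and 1.59), fits that called 537, 643 and 629 of all genes against 234 with 8 libraries. The adhesion effects of the lines differed for none of the 10 genes by edgeR or by DESeq2 (0% of all genes by edgeR), and none had an unadjusted p under 0.05, against 297 of all genes. For *Icam1* the difference of E6 minus WT was 1.37 ± 0.61 (95% confidence interval -0.06 to 2.79, FDR = 0.988), and without replicate 2 of WT after adhesion it was 2.09 (FDR = 0.0199), in a fit that left 1 library in that condition and called 3049 of all genes. For *Vcam1* the difference was -0.47 ± 0.48.

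*Cd47*, the ligand of SIRP-alpha, had 36.4 and 36.4 CPM in WT before and 39.8 and 43.2 CPM in WT after adhesion. In E6 it had 32.9 and 31.9 CPM before and 42.5 and 42.7 CPM after adhesion. All 4 libraries after adhesion were above all 4 before it, by a small step that did not pass the test (averaged log2 FC 0.29 ± 0.08, 95% confidence interval 0.11 to 0.48, FDR = 0.174). The other 7 genes had averaged log2 FCs between -0.21 (*Mcam*) and 0.19 (*Cd44*), with intervals that included 0. For *Cd24a* the averaged log2 FC was -0.03, with an interval from -0.23 to 0.17.

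**Figure D5:**
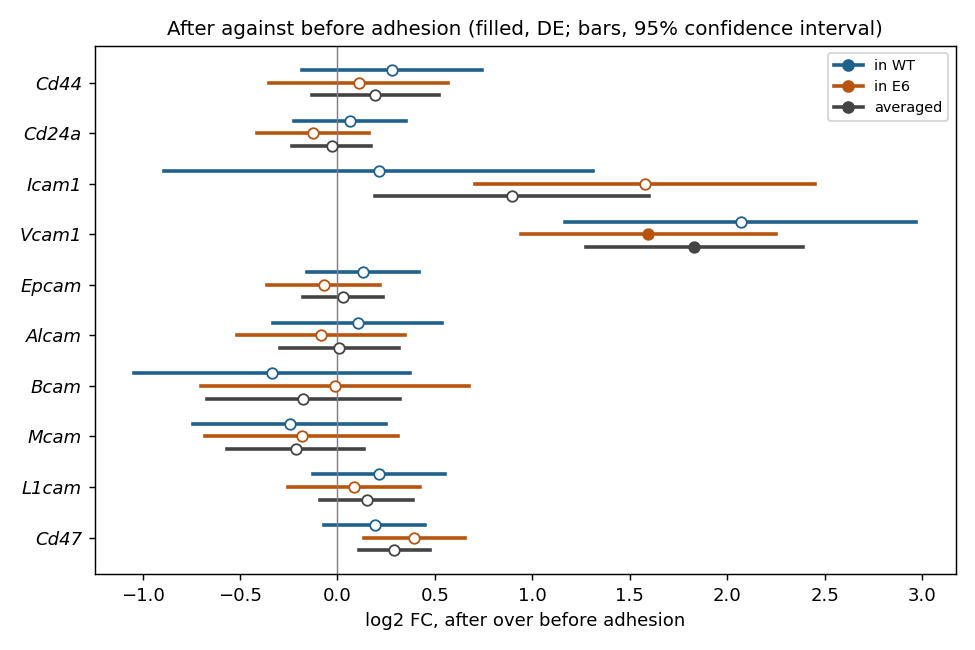
Log2 FC of the libraries after over those before adhesion for the 10 genes, in WT, in E6 and averaged. Bars are 95% confidence intervals and filled points are DE mRNAs, which are *Vcam1* in E6 and averaged.

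Genes whose products bind these receptors were read from lists drawn up by function. Of 14 partners on lymphocytes, 10 were tested, and 5 rose after adhesion in E6, against 2% of all genes. In the same libraries 13 of the 14 tested thymocyte markers rose. Many of these genes were near 0 before adhesion and passed the filter on low counts through libraries after it, some through E6 alone. Both shares were therefore partly fixed by the filter. *Itga4*, a chain of the VCAM1-binding integrin VLA-4, went from 0.0347 ± 0.0491 to 7.39 ± 1.49 CPM (SD, n = 2) in E6 (edgeR FDR = 0.00686). *Itgal*, a chain of the ICAM1-binding integrin LFA-1, went from 0.0347 ± 0.0491 to 6.97 ± 1.41 CPM (FDR = 0.00686). *Selplg*, a selectin ligand, and *Sirpa*, the CD47 receptor found on myeloid cells, were at 0 in E6 before adhesion and at 5.29 ± 0.73 and 3.95 ± 0.33 CPM after it. In WT after adhesion the 4 genes had 1.04 to 1.49 CPM, and all 4 were among the 6 partners that were higher in E6 than in WT after adhesion, against 8.91% of all genes. The only partner that differed in the averaged contrast of the lines was *Siglecg*, of a family of CD24 receptors (log2 FC 1.69 ± 0.39, FDR = 0.0234). Its mean levels were 0.373 and 0.181 CPM in WT before and after adhesion and 0.652 and 1.20 CPM in E6. It passed the filter on low counts through E6 libraries alone, so this call was partly fixed by the filter.

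Of 16 genes of the CD44 and hyaluronan system, 12 were tested, and averaged over adhesion 2 were higher and 1 lower in E6 (11.3% of all genes were called), with a median log2 FC of -0.08 against -0.01 for all genes. *Spp1*, which encodes the CD44 ligand osteopontin, rose from 122 ± 11.5 CPM in WT to 254 ± 37.3 CPM in E6 before adhesion (averaged log2 FC 1.06 ± 0.13, FDR = 0.00248). *Cd74*, the invariant chain that pairs with CD44 at the surface, had 0.0304 and 0.524 CPM in WT before and after adhesion. In E6 it had 2.26 and 6.04 CPM (averaged FDR = 0.000562). It was near 0 in WT before adhesion and passed the filter on low counts through E6 libraries. Its call and the share of higher genes were therefore partly fixed by the filter. *Cd74* also rose after adhesion, averaged over the lines (log2 FC 2.52 ± 0.45, edgeR FDR = 0.0415). *Hyal1*, a hyaluronidase, was lower in E6 (log2 FC -0.77 ± 0.21, FDR = 0.0387).

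Of 18 matrix and same-cell partners, 15 were tested and 1 differed in the averaged contrast of the lines (11.3% of all genes did), *Lamb1*, a laminin chain, with 167 ± 12.2 CPM in WT and 283 ± 13.3 CPM in E6 before adhesion (log2 FC 0.74 ± 0.08, FDR = 0.00156). Their median log2 FC was 0.04. Of 23 other immunoglobulin-type adhesion genes, 11 were tested. *Chl1*, the close homolog of *L1cam*, was the 1 that differed in that contrast (again against 11.3%, FDR = 0.000295). Before adhesion it had 3.73 ± 0.46 CPM in WT and 0.203 ± 0.0913 CPM in E6. Its mean levels in E6, 0.203 CPM before and 0.209 CPM after adhesion, lay within the floor of 0.145 to 0.221 CPM given above. *Chl1* passed the filter on low counts through WT libraries alone, so its call and this share were partly fixed by the filter.

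Across the 8 libraries, log2 CPM of *Mcam* and *Bcam* had a Pearson correlation of 0.96, *Mcam* and *L1cam* of -0.97 and *Icam1* and *Vcam1* of 0.86. These are descriptions over libraries that share lines and adhesion states. Among 9768 well-counted genes, those most like *Vcam1* were *Itgb6* (r = 0.97), *Irf9* (0.96) and *Edn1* (0.96), those most like *Icam1* were *Akna*, *Ets1* and *Plekhg2* (all 0.98), and those most like *Cd44* were *Ccbe1* (1.00), *Cflar* and *Rasal2* (both 0.99). *Axl*, *Nol6* and *Tbc1d20* were most like *Bcam* (all 1.00), *Phc2*, *Cldn4* and *Tollip* most like *Mcam* (all at least 0.99), *Bbs7*, *Ube2b* and *Rps6ka6* most like *Cd24a* (all 0.99) and *Tnip1*, *Klf10* and *Dll1* most like *Cd47* (0.97 to 0.98). *Habp4*, *Rab10* and *Pigh* were most like *Epcam* (all 0.97), *Ctbp2*, *Bag5* and *Tmed7* most like *Alcam* (0.96 to 0.97) and *Gnptab*, *Cep128* and *Alms1* most like *L1cam* (0.98 to 0.99).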

How the data were processed

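RNA-Seq libraries of WT and E6 mTECs before and after adhesion were analysed, 2 per condition. Per the submitters' processing notes, reads were aligned to mm10 (GRCm38) with STAR 2.5.0a and counted with HTSeq, and DESeq2 was used for testing. The authors deposited whole read counts per gene symbol, without normalization. The annotation and strand setting of the counting are not given in the sources used here. The kit was TruSeq Stranded mRNA by the labels and TruSeq Stranded Total RNA by the paper. HTSeq summary lines, 21.2% to 33.3% of each library, stayed out of all totals. In 1 library 18 symbols turned into dates were restored from the gene order.

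Counts were fitted with edgeR 4.0.16 (R 4.3.3): filterByExpr, TMM factors of 0.938 to 1.027, and quasi-likelihood fits to all 8 libraries with a mean for each condition. FDR is Benjamini-Hochberg adjusted over 11672 genes, and DE mRNAs had an FDR below 0.05 and changed at least 1.5-fold. Standard errors were derived from the test. Log2 CPM used a prior count of 2. Positions, exon length and GC content came from GENCODE vM21 on GRCm38, which matched 22740 symbols directly and 934 by an older symbol, and promoters from RefSeq on GRCm38.p6. The alternatives were RLE factors, DESeq2 1.42.0, no filter, the replicate number as a block, a GC correction (lowess with a span of 0.3, limma 3.58.1), both together, culture time in the model, only the libraries compared, no FC limit and each library left out. Procedures were tested on simulated data. Python 3.11.15, numpy 2.4.6, pandas 2.3.3 and matplotlib 3.10.9 were used.

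The 10 genes and the lists were chosen with earlier results of these data known. Named genes are the 10, *Aire*, up to 4 called genes of lowest FDR per list and contrast, and for each of the 10 the 3 genes with the highest Pearson correlation over the libraries, where mean log2 CPM was 2 or more. *Krt5*, *Krt8*, *Krt14*, *Krt18*, *Pax1*, *Foxn1*, *Ly75*, *Fezf2*, *Cd80*, *Psmb11*, *Lyz2*, *Csf1r* and *Cd14* were named after their values were seen. Of 25 listed thymocyte markers, 16 were used and the others were not analysed here. Other lists covered 19 epithelial, 14 mesenchymal, 7 endothelial and 8 myeloid markers. Averaged over adhesion, 1 of 14 tested thymocyte and 1 of 12 tested epithelial markers were higher in E6, against 5.22% of all genes. Of 7 tested mesenchymal markers 1 was lower, against 6.13%. This was *Cdh2*, which had 0 counts in all E6 libraries and passed the filter only through WT, so that share was partly fixed by the filter. After adhesion in E6, 13 of 14 tested thymocyte and 1 of 12 tested epithelial markers rose, against 2% of all genes. Of the other tested markers, 2 of 7 mesenchymal, 1 of 1 endothelial and 1 of 5 myeloid ones rose. The endothelial marker *Pecam1* and the epithelial marker *H2-Aa* passed the filter only through E6 after adhesion. The myeloid marker *Lyz2* and the mesenchymal marker *Vim* passed it only through libraries after adhesion. Reads of overlapping genes are uncertain, among them *Arhgap4* and *Avpr2* beside *L1cam* and an snRNA gene within *Cd44*. The reads carry no molecular identifiers.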

Additional observations from a re-analysis of the deposited data

How the results depend on the processing

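No label used here gives a shared origin for libraries of the same replicate number. Deviations of such libraries correlated at 0.222 for WT before and after adhesion (0.037 after the GC correction) and at -0.079 for E6. For the other pairs they correlated at -0.047 to 0.023, over 9768 genes. With 2 libraries per condition these values cannot decide whether the libraries are paired. With the replicate number as a block, 0 of the 10 genes were called for adhesion in E6 (1 without it), and no other count of calls among the 10 changed. The number called was 5 for E6 against WT averaged in the other fits but DESeq2 (6). Before adhesion (1) it was 3 with the GC correction, 3 with block and GC correction, 2 with culture time, 3 with only the libraries compared, 2 with DESeq2 and 2 with no FC limit. After adhesion (3) it was 5, 5, 4 and 0 in the first 4 of these and 6 with DESeq2. For adhesion in E6 it was 0 with the GC correction, with block and GC correction and with culture time, and 2 with only its 4 libraries. Over fits that left out 1 library, the number ran from 2 to 6 averaged, 0 to 3 before and 0 to 5 after adhesion, and for adhesion from 0 to 3 in WT, 0 to 2 in E6, 0 to 2 averaged and 0 to 2 for the difference. Fits of only the libraries compared equal the full fit for averages and the difference.

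No value called in the main fit of all 8 libraries turned its sign. With the GC correction and with block and GC correction, the log2 FC was -0.061 and -0.055 for *Epcam* and 0.045 and 0.050 for *Cd47* in E6 against WT averaged, and -0.058 and -0.059 for *Cd24a* and -0.020 and -0.023 for *Alcam* for adhesion in WT. It was -0.049 and -0.049 for *Alcam* for adhesion averaged. *Bcam* for adhesion in E6 was 0.0021 with RLE factors, 0.0093 without a filter, 0.044 and 0.048 with those corrections, 0.013 with only its libraries and 0.0024 with DESeq2.
With 1 library left out, the log2 FC with a turned sign ran for E6 against WT averaged from -0.039 to 0.080 for *Epcam*, for E6 against WT after adhesion from -0.18 to 0.055 for *Epcam* and -0.19 to 0.39 for *Alcam*, for adhesion in WT from -0.072 to 0.55 for *Cd44*, -0.032 to 0.14 for *Cd24a*, -0.50 to 0.60 for *Icam1*, -0.21 to 0.35 for *Alcam*, -1.0 to 0.086 for *Bcam* and -0.65 to 0.055 for *Mcam*, for adhesion in E6 from -0.077 to 0.050 for *Bcam* and -0.011 to 0.18 for *L1cam*, for adhesion averaged from -0.074 to 0.012 for *Cd24a*, -0.021 to 0.083 for *Epcam*, -0.13 to 0.14 for *Alcam* and -0.50 to 0.049 for *Bcam*, for the difference of adhesion effects from -0.43 to 0.21 for *Cd44*, -0.42 to 0.16 for *Alcam*, -0.075 to 1.0 for *Bcam*, -0.21 to 0.48 for *Mcam* and -0.28 to 0.092 for *L1cam*.
Over all genes, calls ranged in the alternatives from 671 to 2557 averaged (1324), 37 to 1512 before (585), 0 to 4500 after adhesion (1040), 0 to 3550 for adhesion in WT (0), 0 to 643 in E6 (234), 39 to 1341 averaged (221) and 0 to 3049 for the difference of adhesion effects (0). With the longest transcript as length, the level was 187 CPM per kb for *Cd24a* (against 132), 0.668 CPM per kb for *Vcam1* (against 0.308), 280 CPM per kb for *Epcam* (against 260), 10 CPM per kb for *Alcam* (against 8.47), 7.75 CPM per kb for *Bcam* (against 5.89), 23.1 CPM per kb for *L1cam* (against 16.1), 7.28 CPM per kb for *Cd47* (against 6.09), and 0.65 for *Icam1* (against 0.378), so that *Vcam1* then lay just above *Icam1*. Depth limits *Vcam1* and *Icam1*, which had as few as 6 and 7 counts.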
